A study of Homo sapiens with 4 samples.

Results

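The genes described here are 10 known targets that the EWSR1-FLI1 fusion activates in Ewing sarcoma: NR0B1, NKX2-2, BCL11B, PRKCB, STEAP1, CCND1, LBH, LINGO1, MAPT and NPY1R. They were taken by symbol from the 23228 genes counted in each library, and all 10 were found and passed the filter on low counts. They were named from knowledge of the fusion, not from these libraries, but with earlier results of these libraries known. RNA-seq had been done in A673, an Ewing sarcoma cell line that carries the fusion, grown in medium with serum. The cells received an siRNA against FAT4 or a scramble control siRNA with a lipid reagent, and RNA was taken at 24 h or 48 h. This gave 4 groups with 1 library each, FAT4 siRNA at 24 h, control siRNA at 24 h, FAT4 siRNA at 48 h and control siRNA at 48 h, in the same line and with the same transfection. All values therefore come from 1 cell line, from a single FAT4 siRNA treatment, and without a replicate culture.

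EWSR1-FLI1 joins the activating region of EWSR1 to the DNA-binding ETS domain of FLI1. The fusion protein binds single GGAA motifs near other factors, and it also turns repeats of GGAA into enhancers, which switches on genes that the presumed cell of origin keeps low. Transcription factors such as NR0B1 and NKX2-2 sit high in this program, and kinases, cyclins, surface proteins and neural genes are activated with them. FAT4, the siRNA target, encodes an atypical cadherin.

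Of the 10 genes, 8 have promoter windows in the RefSeq table (build GRCh38.p14), each spanning 250 bases before and 50 bases after an annotated start. Motifs were searched on both strands as GGAA, the core of ETS sites, and as GGAAGGAA, a pair of units of the repeat, whose hits also count as GGAA. GGAA occurred in 95.5% of 35116 windows of this length, with a median of 3 per window, and GGAAGGAA in 3.67% of them. None of the windows of these genes held GGAAGGAA. The number of GGAA was 5 for NR0B1, 1 and 0 for the pair of NKX2-2 windows, 0 for BCL11B, 0 for PRKCB, 4 for STEAP1, 2 for LBH, 7 for NPY1R and 0 to 5 over the 9 windows of LINGO1. The 5 windows below belong to genes that were lower with the FAT4 siRNA, and are shown because they run from 0 GGAA (PRKCB) to 7 (NPY1R). NR0B1 lies on chromosome X (chrX:30309341-30309640, minus strand), NKX2-2 on chromosome 20 (chr20:21522640-21522939, minus strand), PRKCB on chromosome 16 (chr16:23835733-23836032, plus strand), LBH on chromosome 2 (chr2:30231284-30231583, plus strand) and NPY1R on chromosome 4 (chr4:163332547-163332846, minus strand). Each is written 5′ to 3′ along its gene, and capitals mark GGAA or its reverse complement TTCC.
NR0B1: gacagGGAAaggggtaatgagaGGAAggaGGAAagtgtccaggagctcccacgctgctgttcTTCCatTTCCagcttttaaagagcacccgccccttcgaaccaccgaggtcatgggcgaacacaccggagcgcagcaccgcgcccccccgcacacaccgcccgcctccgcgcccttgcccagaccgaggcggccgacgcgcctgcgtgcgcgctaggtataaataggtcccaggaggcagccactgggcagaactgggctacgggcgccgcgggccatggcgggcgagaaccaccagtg
NKX2-2: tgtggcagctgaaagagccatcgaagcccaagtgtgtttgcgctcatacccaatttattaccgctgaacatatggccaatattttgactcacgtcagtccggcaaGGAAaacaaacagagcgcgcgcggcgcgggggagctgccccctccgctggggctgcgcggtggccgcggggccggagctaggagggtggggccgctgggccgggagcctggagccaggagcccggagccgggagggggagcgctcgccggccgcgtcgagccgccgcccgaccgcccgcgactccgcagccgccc
PRKCB: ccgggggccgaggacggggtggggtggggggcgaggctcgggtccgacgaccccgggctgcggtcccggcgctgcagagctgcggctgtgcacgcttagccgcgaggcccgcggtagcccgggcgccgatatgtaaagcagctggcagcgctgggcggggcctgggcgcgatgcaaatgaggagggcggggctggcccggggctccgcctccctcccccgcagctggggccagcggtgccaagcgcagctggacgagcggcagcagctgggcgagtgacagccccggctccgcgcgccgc
LBH: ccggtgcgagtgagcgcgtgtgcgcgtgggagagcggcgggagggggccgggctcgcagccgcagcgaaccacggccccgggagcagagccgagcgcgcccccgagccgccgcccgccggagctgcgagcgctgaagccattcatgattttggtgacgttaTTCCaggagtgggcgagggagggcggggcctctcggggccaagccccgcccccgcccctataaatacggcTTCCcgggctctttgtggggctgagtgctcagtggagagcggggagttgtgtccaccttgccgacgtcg
NPY1R: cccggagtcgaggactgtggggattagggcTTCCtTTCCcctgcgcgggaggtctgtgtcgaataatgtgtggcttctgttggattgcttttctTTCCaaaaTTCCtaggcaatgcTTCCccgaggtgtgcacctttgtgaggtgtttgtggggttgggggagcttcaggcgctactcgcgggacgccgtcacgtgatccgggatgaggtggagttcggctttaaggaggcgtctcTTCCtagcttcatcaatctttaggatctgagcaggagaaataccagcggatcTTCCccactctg
These matches describe letters in short windows. The fusion's binding was not measured here, and more distant elements were not searched.

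Counts assigned to genes summed to 15196813 and 15413960 in FAT4 siRNA at 24 h and 48 h, against 22625833 and 19614913 in control. Both FAT4 siRNA libraries were thus shallower than both controls, and depth cannot be separated from the siRNA. Levels are given as CPM, that is counts scaled to library size with TMM factors, and the floor of 3 counts lay at 0.134 to 0.203 CPM. FAT4 itself, the check of the labels, had 71.8 and 60.2 CPM in FAT4 siRNA at 24 h and 48 h, against 165 and 149 CPM in control. Among the markers of Ewing sarcoma, FLI1, NKX2-2 and NR0B1 were present in all 4 libraries, whereas CD99 was listed at 0 counts in all 4. CD99 lies in the pseudoautosomal region, which a reference genome can hold in 2 copies on the sex chromosomes. Whether the reference used held both is not given in the sources used here. Alignments that were not unique had a counter entry apart from the genes. It stood at 43.1 to 44.6 per 100 counts in genes, outside genes and on more than 1 gene. Its bearing on CD99 was not tested. The 9 markers of blood, endothelial, epithelial and muscle cells summed to 0.703 to 1.08 CPM in FAT4 siRNA and 0.672 to 1.14 CPM in control, with CD3E, DES and MYOD1 at 0 counts throughout.

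The comparison of the siRNAs asked how these fusion targets stood after FAT4 depletion. NKX2-2, LBH, LINGO1, MAPT, PRKCB, NPY1R and NR0B1 fell with the FAT4 siRNA, CCND1 rose, and BCL11B and STEAP1 did not pass the test. The members that fell span transcription factors, a kinase, surface proteins and tau, whereas the most abundant member, the cyclin gene CCND1, went the other way. Thus 8 of 10 members were called at an adjusted p under 0.05 in edgeR's quasi-likelihood test, where 25.9% of all genes tested were. Of these members 7 were lower and 1 was higher, where 14.1% of all 13712 genes tested were lower and 11.9% were higher. Among genes of at least 50 CPM, as 9 of the members are, these shares were 14.7% and 17.2%. The median log2 fold change of the members was -0.33, against -0.01 over all genes tested. The test fits both times together, with 1 residual degree of freedom, and sets the mean change against a spread shared by all genes, so it says nothing of the spread between cultures. Without time as a term none of the 10 was called by edgeR (3 had an unadjusted p under 0.05), where 0% of all genes were. DESeq2 called NKX2-2, LBH and LINGO1 only, of 9 members given an adjusted p, where it called 9.07% of all genes. By DESeq2, 8 members had an unadjusted p under 0.05.

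**Figure D1:**
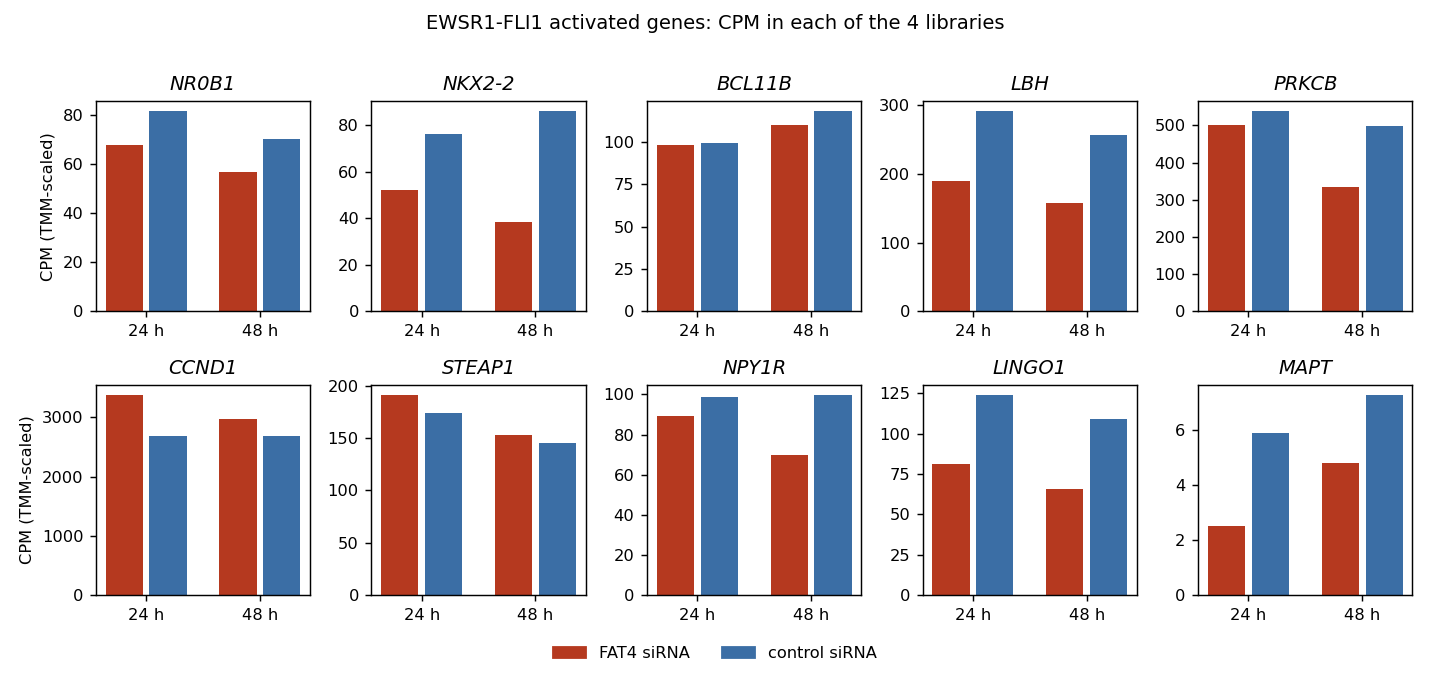
CPM (counts scaled to library size, linear axis from 0) of the 10 activated genes in each library, with FAT4 siRNA in red and control siRNA in blue at 24 h and 48 h. Each bar is 1 library, so there are no error bars; NKX2-2 stood at 52.4 and 38.4 CPM in FAT4 siRNA, against 76.4 and 86.1 CPM in control.

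Among the transcription factors, NKX2-2, a homeodomain protein of neural and pancreatic development, fell the furthest. It had 52.4 CPM in FAT4 siRNA and 76.4 CPM in control at 24 h, and 38.4 CPM in FAT4 siRNA and 86.1 CPM in control at 48 h. Both FAT4 siRNA libraries lay below both controls. FAT4 siRNA over control gave a CPM ratio of 0.685 (95% counting interval 0.629 to 0.746) at 24 h and 0.447 (0.406 to 0.490) at 48 h. Over both times it fell, at a fitted log2 fold change of -0.85 (SE 0.107, adjusted p = 2.21e-13, edgeR), the rank 534 from the lowest of 13712. In bulk RNA, fewer cells with a transcript and less of it per cell cannot be told apart, and this holds for each value given here.

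NR0B1, an orphan nuclear receptor whose promoter region holds a GGAA repeat known to be bound by the fusion, showed a smaller difference. It had 68.0 CPM in FAT4 siRNA and 81.6 CPM in control at 24 h, and 56.7 CPM in FAT4 siRNA and 70.4 CPM in control at 48 h. The groups did not overlap, but the highest FAT4 siRNA library was close to the lowest control. Its ratio was 0.834 (interval 0.771 to 0.901) at 24 h and 0.805 (0.739 to 0.876) at 48 h. NR0B1 fell, at a fitted log2 fold change of -0.29 (SE 0.103, adjusted p = 0.0246, edgeR). With a correction for GC content and transcript length it was no longer called (-0.17, adjusted p = 0.184), nor was it by DESeq2 (adjusted p = 0.196).

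LBH, a small transcription cofactor first described in limb bud and heart, was lower to a similar extent at each time. It had 189 CPM in FAT4 siRNA and 291 CPM in control at 24 h, and 157 CPM in FAT4 siRNA and 256 CPM in control at 48 h. Its ratios were 0.651 (interval 0.622 to 0.680) and 0.614 (0.585 to 0.645), and both FAT4 siRNA libraries lay well below both controls. LBH fell, at a fitted log2 fold change of -0.66 (SE 0.0909, adjusted p = 3.44e-11, edgeR).

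BCL11B, a zinc finger transcription factor of T cell and neuronal development, stayed close to the control. It had 98.0 CPM in FAT4 siRNA and 99.3 CPM in control at 24 h, and 110 CPM in FAT4 siRNA and 118 CPM in control at 48 h. The libraries overlapped between the siRNAs. The ratio was 0.987 (interval 0.923 to 1.05) at 24 h and 0.935 (0.878 to 0.996) at 48 h. Its log2 fold change was -0.06 (SE 0.0960, adjusted p = 0.704, edgeR), and its sign turned with the correction for GC content and length (0.06).

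**Figure D2:**
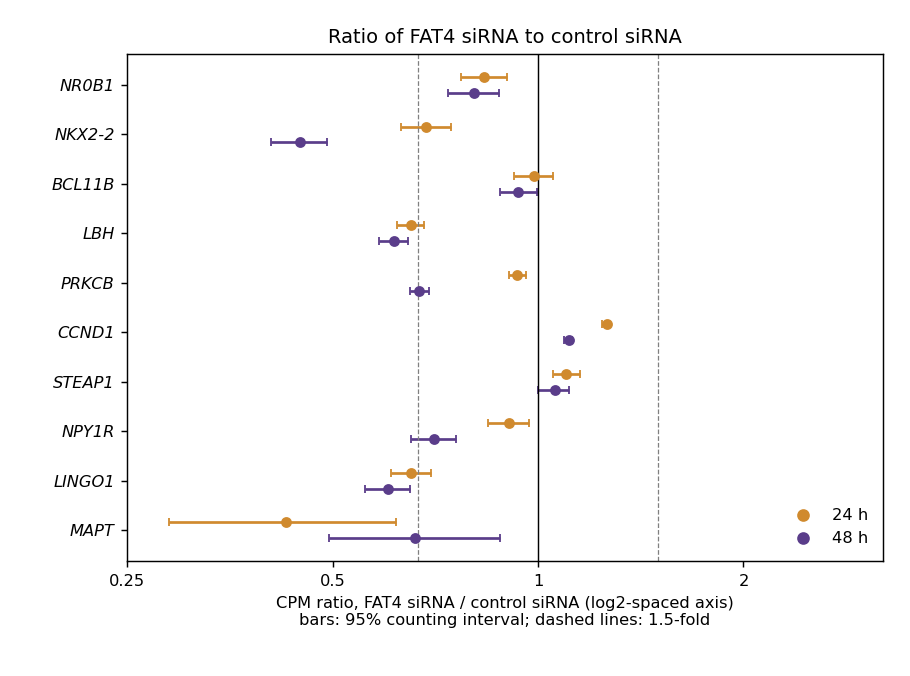
CPM ratio of FAT4 siRNA to control siRNA (log2-spaced axis) for the 10 genes at 24 h (orange) and 48 h (purple), 1 library per group. Bars are exact 95% intervals that cover counting error only, the solid line marks a ratio of 1 and the dashed lines 1.5-fold; LBH, LINGO1 and MAPT lie past 1.5-fold at both times.

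PRKCB encodes protein kinase C beta, which the fusion is known to induce directly and on which Ewing cells depend. Its difference stood mainly at the later time, with 501 CPM in FAT4 siRNA and 538 CPM in control at 24 h, and 334 CPM in FAT4 siRNA and 498 CPM in control at 48 h. The FAT4 siRNA library at 24 h and the control at 48 h were level, so the groups overlapped. The ratio was 0.932 (interval 0.905 to 0.959) at 24 h and 0.670 (0.648 to 0.693) at 48 h. PRKCB fell, at a fitted log2 fold change of -0.34 (SE 0.0887, adjusted p = 0.00130, edgeR), with adjusted p = 0.0755 in DESeq2.

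CCND1, the D-type cyclin that drives cells from G1 into S phase, was the most abundant member and the one called higher. It had 3380 CPM in FAT4 siRNA and 2690 CPM in control at 24 h, and 2980 CPM in FAT4 siRNA and 2690 CPM in control at 48 h. Both FAT4 siRNA libraries lay above both controls, which were equal to 3 digits. The ratio was 1.26 (interval 1.24 to 1.27) at 24 h and 1.11 (1.09 to 1.12) at 48 h. CCND1 rose, at a fitted log2 fold change of 0.24 (SE 0.0890, adjusted p = 0.0324, edgeR), with adjusted p = 0.0979 in DESeq2. LTO1, named ORAOV1 in the counts, overlaps it on the other strand and had 51.4 and 39.3 CPM in FAT4 siRNA, against 51.7 and 32.9 CPM in control.

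The surface proteins did not move alike. NPY1R, a G protein-coupled receptor for neuropeptide Y, had 89.3 CPM in FAT4 siRNA and 98.7 CPM in control at 24 h, and 70.0 CPM in FAT4 siRNA and 99.7 CPM in control at 48 h. The groups did not overlap, and the 48 h FAT4 siRNA library was the lowest by far. The ratio was 0.905 (interval 0.845 to 0.970) at 24 h and 0.703 (0.652 to 0.757) at 48 h. NPY1R fell, at a fitted log2 fold change of -0.32 (SE 0.0984, adjusted p = 0.00653, edgeR), with adjusted p = 0.141 in DESeq2. NPY5R, a second receptor for the same peptide and also a known fusion target, overlaps NPY1R on the other strand, and had a log2 fold change of 0.04 (adjusted p = 0.890, edgeR). Its levels were 13.9 and 11.3 CPM in FAT4 siRNA, against 11.2 and 13.3 CPM in control.

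LINGO1, a leucine-rich repeat protein that takes part in the Nogo receptor complex of neurons, was lower at both times. It had 81.0 CPM in FAT4 siRNA and 124 CPM in control at 24 h, and 65.9 CPM in FAT4 siRNA and 109 CPM in control at 48 h. Neither FAT4 siRNA library came near a control. The ratios were 0.651 (interval 0.608 to 0.697) and 0.602 (0.558 to 0.648), and LINGO1 fell, at a fitted log2 fold change of -0.68 (SE 0.0979, adjusted p = 4.07e-10, edgeR). Its transcript has the highest GC content of the 10 (62.1%), and with the correction for GC content and length it fell by 0.44 (adjusted p = 0.000133).

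STEAP1, a surface antigen of the STEAP family of membrane reductases, was slightly above control at both times without passing the test. It had 191 CPM in FAT4 siRNA and 174 CPM in control at 24 h, and 153 CPM in FAT4 siRNA and 145 CPM in control at 48 h. The libraries overlapped between the siRNAs, since both values at 24 h exceeded both at 48 h. The log2 fold change was 0.11 (SE 0.0925, adjusted p = 0.424, edgeR) and -0.01 with the correction for GC content and length. STEAP1 has a close copy, STEAP1B, with 19.5 and 16.9 CPM in FAT4 siRNA, against 22.8 and 18.4 CPM in control, and reads shared by the pair could have been split or lost.

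MAPT, which encodes the microtubule-associated protein tau, was the least abundant member, and counting error bears on it most. It had 37 counts in FAT4 siRNA and 131 in control at 24 h, and 75 in FAT4 siRNA and 146 in control at 48 h, which is 2.50 and 4.80 CPM in FAT4 siRNA, against 5.87 and 7.26 CPM in control. Both FAT4 siRNA libraries lay below both controls. The ratio was 0.427 (interval 0.288 to 0.619) at 24 h and 0.661 (0.493 to 0.879) at 48 h. MAPT fell, at a fitted log2 fold change of -0.87 (SE 0.231, adjusted p = 0.00147, edgeR), at rank 493 from the lowest of 13712, and was given no adjusted p by DESeq2.

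**Figure D3:**
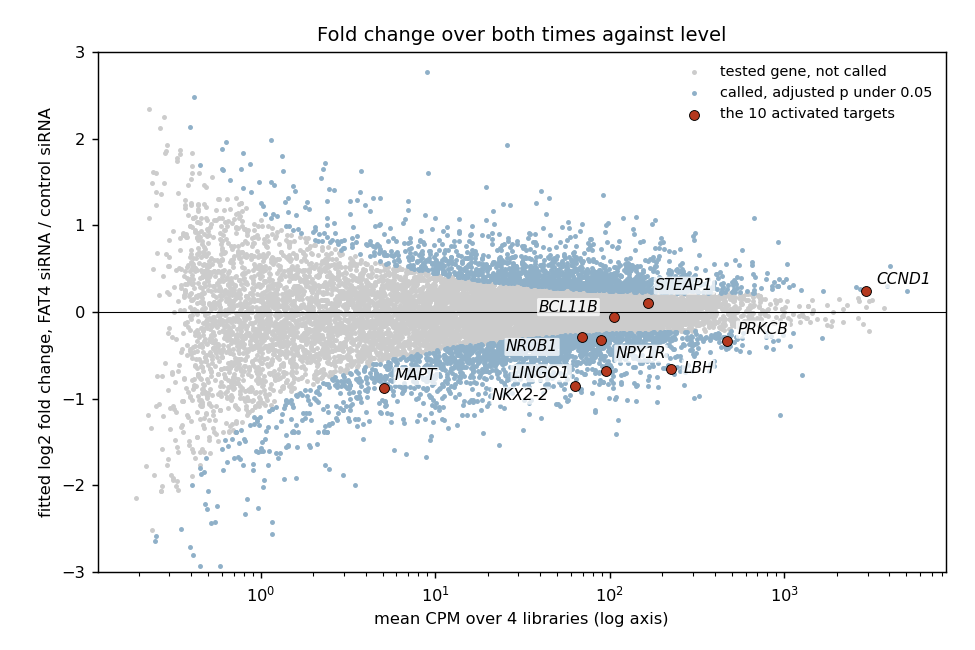
Fitted log2 fold change of FAT4 siRNA over control siRNA, both times together, against the mean CPM over 4 libraries (log axis), for genes tested with edgeR. Grey points were not called, blue points passed an adjusted p of 0.05, red points are the 10 activated targets, and 8 genes beyond 3 log2 units are not drawn; MAPT and NKX2-2 lie lowest of the 10, at -0.87 and -0.85, and CCND1 highest, at 0.24.

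Read by group, both FAT4 siRNA libraries lay below both controls for 6 of the 10 genes and above both for 1, where 23.3% and 23.1% did so among the 10595 genes averaging 5 CPM or more. The same 8 members, all but CCND1 and STEAP1, were below control at both times by sign, as were 37.9% of these genes. The counting interval stayed below 1 at both times for 7 members (21.2% of these genes) and above 1 for CCND1 alone (20.5%). At 24 h, 3 members were at least 1.5-fold lower (LBH, LINGO1 and MAPT), where 4.62% of these genes were. At 48 h, 4 members were (LBH, LINGO1, MAPT and NKX2-2), where 6.90% were. LBH, LINGO1 and MAPT were past this fold at both times, as were 2.78% of these genes. These counts use the plain CPM ratio. MAPT passes at 48 h only on that scale, since its log2 ratio of CPM plus 1 was -0.51, short of 1.5-fold, and its counting interval of 0.493 to 0.879 spans that fold. No member was 1.5-fold higher at either time, where 2.62% of genes were at 24 h and 4.10% at 48 h. The members' median log2 ratio was -0.20 at 24 h, against -0.01 over all of these genes, and -0.51 at 48 h, against 0.01 over all genes of at least 5 CPM.

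The size of the siRNA ratio differed between the times for some members. For NKX2-2, PRKCB, NPY1R and CCND1 the counting intervals of both times did not overlap, that is 4 of 10 members, where 24% of genes of at least 5 CPM had intervals apart. The ratio at 48 h divided by that at 24 h was 0.652 for NKX2-2, 0.719 for PRKCB, 0.776 for NPY1R and 0.881 for CCND1. It was 0.944 for LBH, 0.925 for LINGO1 and 0.966 for NR0B1, whose intervals overlapped. For MAPT it was 1.55, also with overlapping intervals. With 1 library per group these differences had no test.

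The siRNA ratios across genes moved with base composition, and so did part of the members' values. Genes were put into 4 groups of 2606 by the GC content of their transcript. In the group of highest GC content (56.6% to 74.7%), to which NR0B1, NKX2-2, LINGO1 and MAPT belong, log2 ratios had a median of -0.23 at 24 h and -0.10 at 48 h. In the group of lowest GC content (31.5% to 42.0%), which holds NPY1R, these medians were 0.20 and 0.09. With GC content and transcript length corrected in the fit, NKX2-2 fell by 0.74, MAPT by 0.67, LBH by 0.57, NPY1R by 0.48, LINGO1 by 0.44 and PRKCB by 0.28, and CCND1 rose by 0.32, all with edgeR adjusted p under 0.05. That correction left 6 members lower and 1 higher, where 24.1% of all genes were called. Of all genes called with it 55.8% were higher, against 45.7% without it. What the relation to GC content comes from was not tested.

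**Figure D4:**
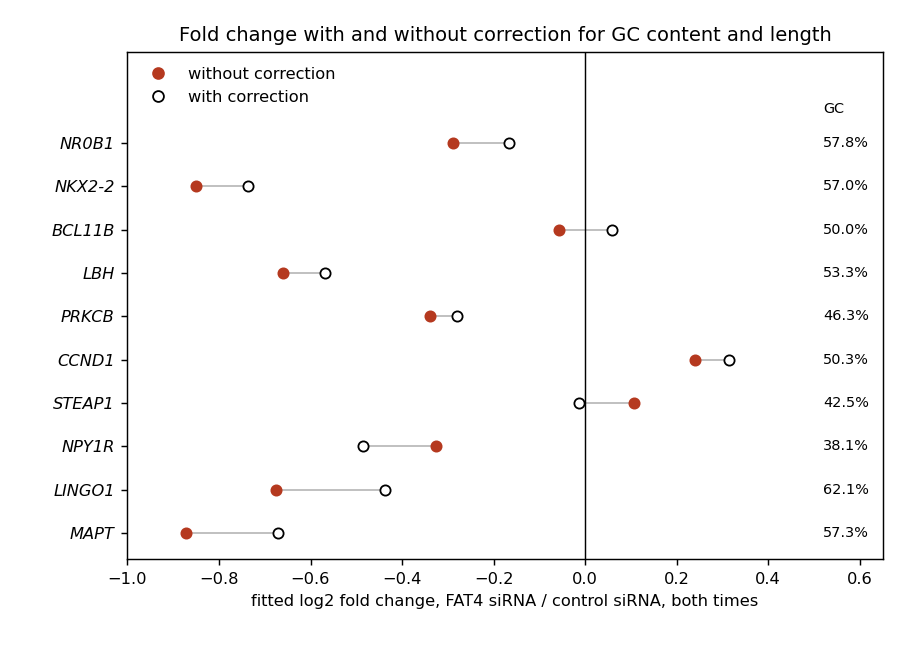
Fitted log2 fold change of FAT4 siRNA over control siRNA for each activated gene, without (red) and with (open) correction for GC content and transcript length; numbers at the right are the GC content of the transcript. LINGO1 moved from -0.68 to -0.44 and NPY1R from -0.32 to -0.48.

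Words in the 3′ UTR that marked genes with lower or higher siRNA ratios in earlier work on these libraries were looked up in the members. TTGGACT occurred in the UTRs of PRKCB and LBH, and in 11.3% of 10084 genes of at least 5 CPM with an annotated UTR. Genes with it had medians of -0.05 (24 h) and -0.07 (48 h) on the log2 ratio scale, against -0.01 and 0.01 in genes without it. AGCCTTA, found in 10.4% of these genes and marking higher ones (medians of 0.11 and 0.07, against -0.03 and -0.00333), was in none of the 10. Both words were chosen from these same libraries, so the direction of these medians follows from that choice and is no separate evidence. The other 5 members that fell held neither word, and the part of these words in the members' values was not tested.

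The fusion itself can be seen only through its partner genes, since the counts do not separate fusion transcripts from those of intact EWSR1 and FLI1. FLI1 had 106 and 97.2 CPM in FAT4 siRNA, against 95.3 and 81.2 CPM in control at 24 h and 48 h. Its log2 fold change was 0.21 (SE 0.0972, adjusted p = 0.0974, edgeR). EWSR1 had 289 and 234 CPM in FAT4 siRNA, against 267 and 222 CPM in control, a log2 fold change of 0.09 (SE 0.0897, adjusted p = 0.484, edgeR). Both genes were above control at each time, and neither passed the test at an adjusted p of 0.05. The ratio of FLI1 was 1.12 (interval 1.05 to 1.19) at 24 h and 1.2 (1.12 to 1.28) at 48 h. Both FAT4 siRNA libraries lay above both controls for FLI1, whereas the libraries overlapped between the siRNAs for EWSR1. The intervals of EWSR1 also lay above 1 at both times, but these intervals cover counting error only.

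A list of 41 further genes that the fusion is known to activate, written from general knowledge, held genes called in both directions. Of 39 tested, 11 fell and 7 rose, that is 46.2% called, where 25.9% of all genes tested were called (14.1% lower and 11.9% higher). The median log2 fold change was 0.04, against -0.01 over all genes tested. The difference between this list and the 10 members was not tested. LOXHD1, a hearing-related gene with high levels in Ewing sarcoma, fell by 0.91 (SE 0.137, adjusted p = 2.25e-09, edgeR), with 16.8 and 16.6 CPM in FAT4 siRNA, against 25.2 and 38.6 CPM in control. The calcium-activated potassium channel KCNN1 fell by 0.71, the chondromodulin gene LECT1 by 0.67 and the glutathione S-transferase GSTM4 by 0.56. Of the 7 genes that rose, CAV1 had the largest change, 0.53 (SE 0.0897, adjusted p = 1.86e-07, edgeR). It had 5100 and 4450 CPM in FAT4 siRNA, against 3710 and 2950 CPM in control. Cell division genes of the list, AURKA, AURKB, FOXM1, PBK and UBE2C, had log2 fold changes of 0.03 to 0.16 and did not pass. CD99 and MFNG were at 0 counts. Of 28 tested genes that the fusion represses, 15 rose and 1 fell, or 57.1% called against the same 25.9%, with a median of 0.30 against -0.01 over all genes tested. The connective tissue growth factor CTGF rose by 1.93 and CYR61 by 1.31, both matricellular, each with both FAT4 siRNA libraries above both controls. The Wnt antagonist DKK1 and the growth factor binding protein IGFBP3 also passed the test, but DKK1 had at most 3.65 CPM in any library, and IGFBP3 was at the floor of 3 counts in control at 48 h.

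Levels between the 10 genes were compared per length of 1 annotated transcript each, as CPM per kilobase. Means over the 4 libraries ran from CCND1 (682) over STEAP1 (126), LBH (72.2), PRKCB (58.4), NR0B1 (34.2), LINGO1 (31.2), NKX2-2 (30.3), NPY1R (29.5) and BCL11B (14.1) to MAPT (0.755). CCND1, STEAP1, BCL11B and MAPT had ranges over the libraries that overlapped no neighbour in this order. The ranges of LBH (50.8 to 94.0) and PRKCB (41.7 to 67.2) overlapped each other and no further gene. So did those of NR0B1, LINGO1, NKX2-2 and NPY1R, the lowest being 18.4 for NKX2-2 in FAT4 siRNA at 48 h and the highest 41.1 for NKX2-2 in control at 48 h. The transcript in use can differ from the annotated one, so these levels are approximate.

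The genes whose centred log2 CPM values lay nearest to those of NKX2-2 over the 4 libraries, among 10585 others, were DCDC2, ACOX2 and ARHGAP42. Their root mean square differences were 0.0236, 0.0239 and 0.0419 log2 units, against a median of 0.475 over all of these genes. DCDC2 had 96.6 and 73.3 CPM in FAT4 siRNA, against 139 and 158 CPM in control. For MAPT the nearest were LRRC4B, ADCK2 and SEMA4F, with differences of 0.0626, 0.0650 and 0.0767, against a median of 0.492. The genes named were picked as those with the smallest differences, so lying below the median follows from the choice. A likeness over 4 libraries is a description and had no test.

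The comparison of 48 h with 24 h asked how the same genes moved with time after transfection. PRKCB, STEAP1 and LBH fell over both siRNAs, and no member rose, so 3 of 10 were called, where 26.6% of all genes tested were, and 12.8% were lower and 13.8% higher. Among genes of at least 50 CPM, 21.9% were lower and 9.56% higher. PRKCB fell, at a fitted log2 fold change of -0.35 (SE 0.0887, adjusted p = 0.000960, edgeR), STEAP1 by 0.29 (SE 0.0925, adjusted p = 0.0107) and LBH by 0.22 (SE 0.0906, adjusted p = 0.04995), the last just under the threshold. With the GC and length correction 6 members were called lower, NR0B1, LINGO1 and NPY1R in addition, where 33.5% of all genes were called. With upper quartile scaling 2 members, BCL11B and MAPT, were called higher and 2 lower, where 25.8% of all genes were called. Of all genes called with that scaling 65.2% were higher, against 51.9% with TMM and 33.9% with the GC and length correction. DESeq2 called none of the 10 (3 had an unadjusted p under 0.05), where it called 8.58% of all genes.

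**Figure D5:**
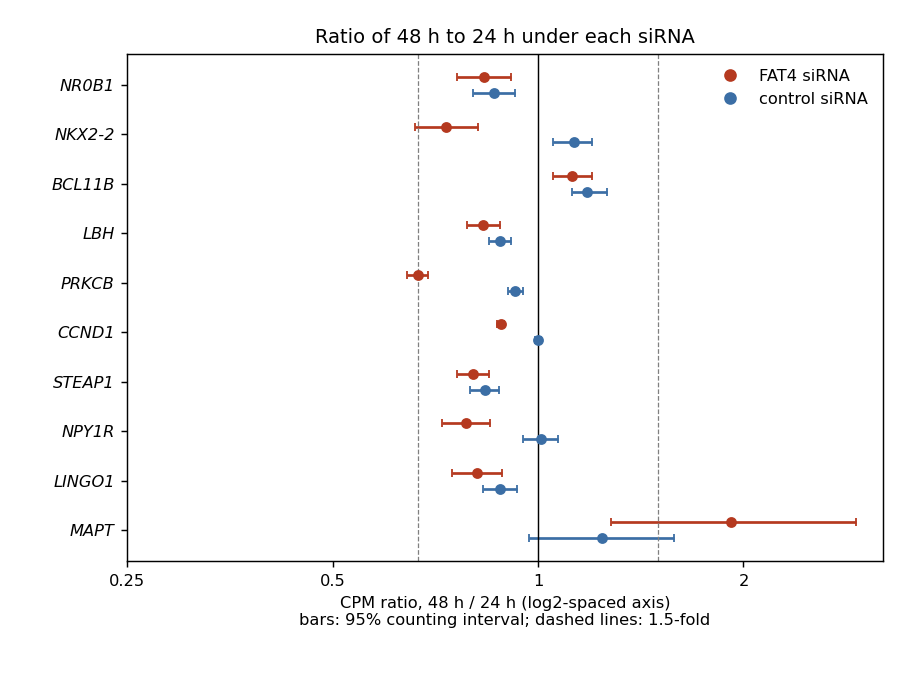
CPM ratio of 48 h to 24 h (log2-spaced axis) for the 10 genes under FAT4 siRNA (red) and control siRNA (blue), 1 library per group, with exact 95% intervals that cover counting error only; dashed lines mark 1.5-fold. NKX2-2 lies at 0.734 under FAT4 siRNA and 1.13 under control siRNA, on opposite sides of 1.

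Within each siRNA the time ratios use the same 4 libraries as the siRNA ratios, so the 2 views are not separate evidence. PRKCB had a 48 h to 24 h ratio of 0.666 (interval 0.642 to 0.690) under FAT4 siRNA and 0.926 (0.902 to 0.951) under control siRNA. It was the 1 member at least 1.5-fold lower under FAT4 siRNA, where 3.38% of genes were. MAPT was the 1 member at least 1.5-fold higher there, at 1.92 (1.28 to 2.92), where 6.54% of genes were, and it had 1.24 (0.971 to 1.58) under control siRNA. NPY1R had 0.784 (0.723 to 0.850) under FAT4 siRNA and 1.01 (0.951 to 1.07) under control siRNA. NKX2-2 had 0.734 (0.659 to 0.817) under FAT4 siRNA and 1.13 (1.05 to 1.20) under control siRNA. NR0B1, LBH, LINGO1 and STEAP1 lay between 0.803 and 0.833 under FAT4 siRNA and between 0.835 and 0.880 under control siRNA, below 1 in both. Under control siRNA no member passed 1.5-fold in either direction, where 4.79% of genes were higher and 2.46% lower by that much.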

How the data were processed

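RNA-seq libraries of A673 cells were prepared with a stranded mRNA kit, per the labels' protocols. The deposited values were whole-number read counts per gene, not normalized, 1 library per file. Build hg19 and the tools HTSeq, SAMtools, TopHat2 and CASAVA 1.8.2 are listed, with no order, in the submitters' processing notes. For the counting, neither annotation nor strand setting is given in the sources used here. Whether reads of genes that overlap on opposite strands were told apart is therefore not known. The 5 counter entries that name no gene were left out. Of the counts in genes, outside genes and on more than 1 gene together, 19.5% to 20.5% lay outside genes and 0.772% to 0.804% on more than 1 gene.

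Counts were scaled with TMM, filtered with filterByExpr (minimum count 10, total 15) and fitted with edgeR 4.0.16 in R 4.3.3, with additive terms for siRNA and for time and with all 4 libraries in 1 model. Each term was tested two-sided by the quasi-likelihood test, with Benjamini-Hochberg adjustment over 13712 genes at 0.05. Ratios at each time were taken from CPM, with exact Clopper-Pearson 95% intervals. These intervals and the floor of 3 counts cover counting error only. Log2 ratios used CPM plus 1, which understates changes of low genes. Alternatives were other scalings, no filter, DESeq2 1.42.0, a single model term, other pseudocounts, and splines of GC content and length (5 and 4 degrees of freedom) as offsets. GC content and length came from 1 GENCODE 29 transcript per gene, matched for 95.8% of tested genes. That release is on another build than hg19, and no hg19 coordinates are given.

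The fit was tested on simulated data with known changes. It recovered 65.7% of 1.5-fold and 87.9% of 2-fold changes with a dispersion shared by all genes, and 4.4% of calls were false. With a dispersion that varied between genes these values were 62.9%, 84.8% and 7.05%. The simulated siRNA change was the same at both times, so a difference between the times was not covered. Of the genes tested, 198 and 196 were changed, far fewer than the 3555 called in the data. No effect of time was simulated, and no difference between cultures beyond the dispersion set. False calls that arise from unreplicated cultures were therefore not covered either.

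The members and gene lists were chosen with earlier results of these data known, so no test was made over a list. By rule, the genes named were all members, FAT4, EWSR1 and FLI1, the 4 called genes with the largest change in each list, and the 3 genes most like each of the 2 members with the largest change. Outside this rule, NPY5R, LTO1 and STEAP1B were named because they overlap or resemble a member. CAV1, PPP1R1A, PAX7, GLI1, PDGFC, IL1RAP, the cell division genes of the activated list and the genes at 0 were named after their values were seen.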

Additional observations from a re-analysis of the deposited data

Results flagged for a closer look

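NKX2-2 moved in opposite directions with time under the 2 siRNAs. From 24 h to 48 h its log2 ratio was -0.44 under FAT4 siRNA (52.4 CPM at 24 h and 38.4 CPM at 48 h) and 0.17 under control siRNA (76.4 CPM at 24 h and 86.1 CPM at 48 h), a difference of -0.61. Both counting intervals excluded 1, on opposite sides. With 1 library per group this difference was not tested.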

How the results depend on the processing

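Over the planned scalings (DESeq2 size factors or upper quartiles in edgeR) and without the filter on low counts, the siRNA comparison called the same number of members, 1 higher and 7 lower. Of all genes, 25.9% and 26% were called with these scalings, and 19.1% without the filter. DESeq2 called 3 members for the siRNA, 11 of the other activated genes and 1244 genes in all, and 0 members and 1176 genes for time. Without the other model term, edgeR called 0 members, 0 other activated genes, 0 repressed genes and 0 genes in all for the siRNA (unadjusted p under 0.05 for 3, 9, 9 and 1706), and 0 members and 50 genes for time (unadjusted for 0 and 1821). The GC and length correction called 6 members for time (33.5% of all genes, against 26.6% without it), and turned the siRNA sign of BCL11B (0.0581) and STEAP1 (-0.0145), neither of them called. Pairing by replicate culture was not possible, because each group holds 1 library and the labels give no replicate numbers to block on. Time as a model term already sets the siRNAs against each other within each time, and the calls rest on it. Log2 ratios moved beyond their counting interval in 7 cases, among them MAPT at 24 h with a pseudocount of 5 CPM (-0.53, against -0.97 with 1 CPM). Depth limits MAPT most, at 37 to 146 counts.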

Other observations

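Most of the other activated targets tested had, as NKX2-2 did, a lower ratio of FAT4 siRNA to control at 48 h than at 24 h. The share of all genes with such a ratio was not taken. The genes named here were picked after their values were seen. The log2 ratio of LOXHD1 was -0.56 at 24 h and -1.17 at 48 h, that of the phosphatase inhibitor PPP1R1A -0.24 and -0.78, and that of the paired box factor PAX7 -0.33 and -0.64. GLI1, the effector of hedgehog signalling, went from one side to the other, with 9.27 CPM in FAT4 siRNA and 10.9 CPM in control at 24 h, and 24.1 CPM in FAT4 siRNA and 11.7 CPM in control at 48 h. PDGFC, a platelet-derived growth factor, and IL1RAP, an interleukin receptor subunit, were above control at both times and also had the lower ratio at 48 h. Their log2 ratios were 0.71 and 0.66 at 24 h, and 0.31 and 0.35 at 48 h. These differences between the times had no test.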
